A study of Mus musculus with 16 samples.

Results

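The 9 genes described here encode the enzymes that make serine from glucose and pass its carbon to folate: Phgdh, Psat1, Psph, Shmt1, Shmt2, Mthfd1, Mthfd1l, Mthfd2 and Aldh1l2. They were found by symbol among the 55573 gene rows of the count table, each symbol matched 1 Ensembl row, and all 9 had enough reads to enter every test. Transcripts were counted by RNA sequencing in mouse cerebral cortex in 16 libraries, in 4 groups of 4. Aifm1-KI mice carry a knock-in of Aifm1 (R200 del), which removes residue 200, an arginine, from the encoded protein, and Aifm1-WT are wild-type littermates of that line. Hq-mut are Harlequin mutants of the stock B6CBACa Aw-J/A-Aifm1Hq/J, and Hq-WT are wild-type littermates of that stock. The labels give every sample the strain C57BL/6, an age near postnatal day 180 and no treatment. Both mutations are carried in the germline, so the labels restrict neither to a cell type. The product of Aifm1, AIF, is a mitochondrial flavoprotein on which assembly of the respiratory chain depends, and the Harlequin mutation lowers its expression.

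Serine is built from a glycolytic intermediate in 3 steps, by phosphoglycerate dehydrogenase (Phgdh), phosphoserine aminotransferase (Psat1) and phosphoserine phosphatase (Psph). Serine hydroxymethyltransferases then move a carbon from serine to tetrahydrofolate and leave glycine, with Shmt1 in the cytosol and Shmt2 in mitochondria. In mitochondria the folate-bound carbon is oxidised by Mthfd2, released as formate by Mthfd1l or burnt to carbon dioxide by Aldh1l2, and in the cytosol Mthfd1 takes formate up again for purine and thymidylate synthesis. In the brain astrocytes are a main site of serine synthesis, and in several tissues with respiratory chain defects the transcription factor ATF4 is known to raise Phgdh, Psat1, Shmt2, Mthfd2 and Aldh1l2.

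The shallowest library was Hq-WT 3, with 10671580 counts, and the deepest Aifm1-KI 2, with 32551594. Levels are given as CPM, the usual depth-scaled count unit, with TMM factors over all 16 libraries. Aifm1 itself averaged 3.32 ± 0.79 CPM over 4 Hq-mut libraries (± is the SD here and below) and 23.9 ± 1.25 over 4 Hq-WT libraries, with a log2 difference of -2.87 (SE 0.19) and an edgeR adjusted p of 0.000348. It averaged 23.7 ± 1.84 CPM in Aifm1-KI and 22.7 ± 0.81 in Aifm1-WT (n = 4 each), and a gene-level count cannot reveal a missing codon. All 8 excitatory neuron markers of cortex were detected in every library. Their mean log2 CPM was 7.10 in Aifm1-KI 2 and 7.87 in Aifm1-KI 4, and 8.18 to 8.47 in the other libraries. Levels of transcripts that mark other tissues also differed between libraries, and their source was not tested. Summed CPM of 10 striatal markers spanned 265 to 641 in Aifm1-KI and 227 to 277 in Aifm1-WT, and 251 to 856 in Hq-mut and 281 to 309 in Hq-WT. Summed CPM of 14 liver transcripts reached 364 in Aifm1-WT and 17.0 at most in Aifm1-KI. Choroid plexus markers summed to 2899 CPM in Aifm1-KI 2 and 5553 CPM in Hq-WT 2. Whether each library came from its own animal is not stated in the labels, so p-values measure only the spread between libraries, which may be technical.

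Psat1 had the highest level of the enzymes for its length in wild-type cortex and Aldh1l2 the lowest. Over the 8 wild-type libraries, Psat1 stood at 21.0 ± 2.35 CPM per kilobase of exon (SD, n = 8), Mthfd1 at 8.20 ± 0.78 and Shmt2 at 5.26 ± 0.32. Below them came Psph at 2.82 ± 0.26 CPM per kilobase (SD, n = 8), Phgdh at 2.50 ± 0.39 and Mthfd1l at 2.24 ± 0.38. The place of Phgdh is uncertain, since its row held 45.4% to 58.0% of the counts of the gene and its pseudogene copies, described below. The lowest were Mthfd2 at 1.47 ± 0.26 CPM per kilobase (SD, n = 8), Shmt1 at 0.90 ± 0.14 and Aldh1l2 at 0.32 ± 0.08. Neighbours in this order overlapped in the range of the 8 libraries for Psph and Phgdh, for Phgdh and Mthfd1l, and for Mthfd1l and Mthfd2. The other neighbours did not overlap: the lowest Psat1 library stood at 17.9 CPM per kilobase and the highest Mthfd1 library at 9.78. The mitochondrial Shmt2 was above the cytosolic Shmt1 in all 8 wild-type libraries, whose ranges were 4.88 to 5.62 and 0.714 to 1.13 CPM per kilobase.

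**Figure D1:**
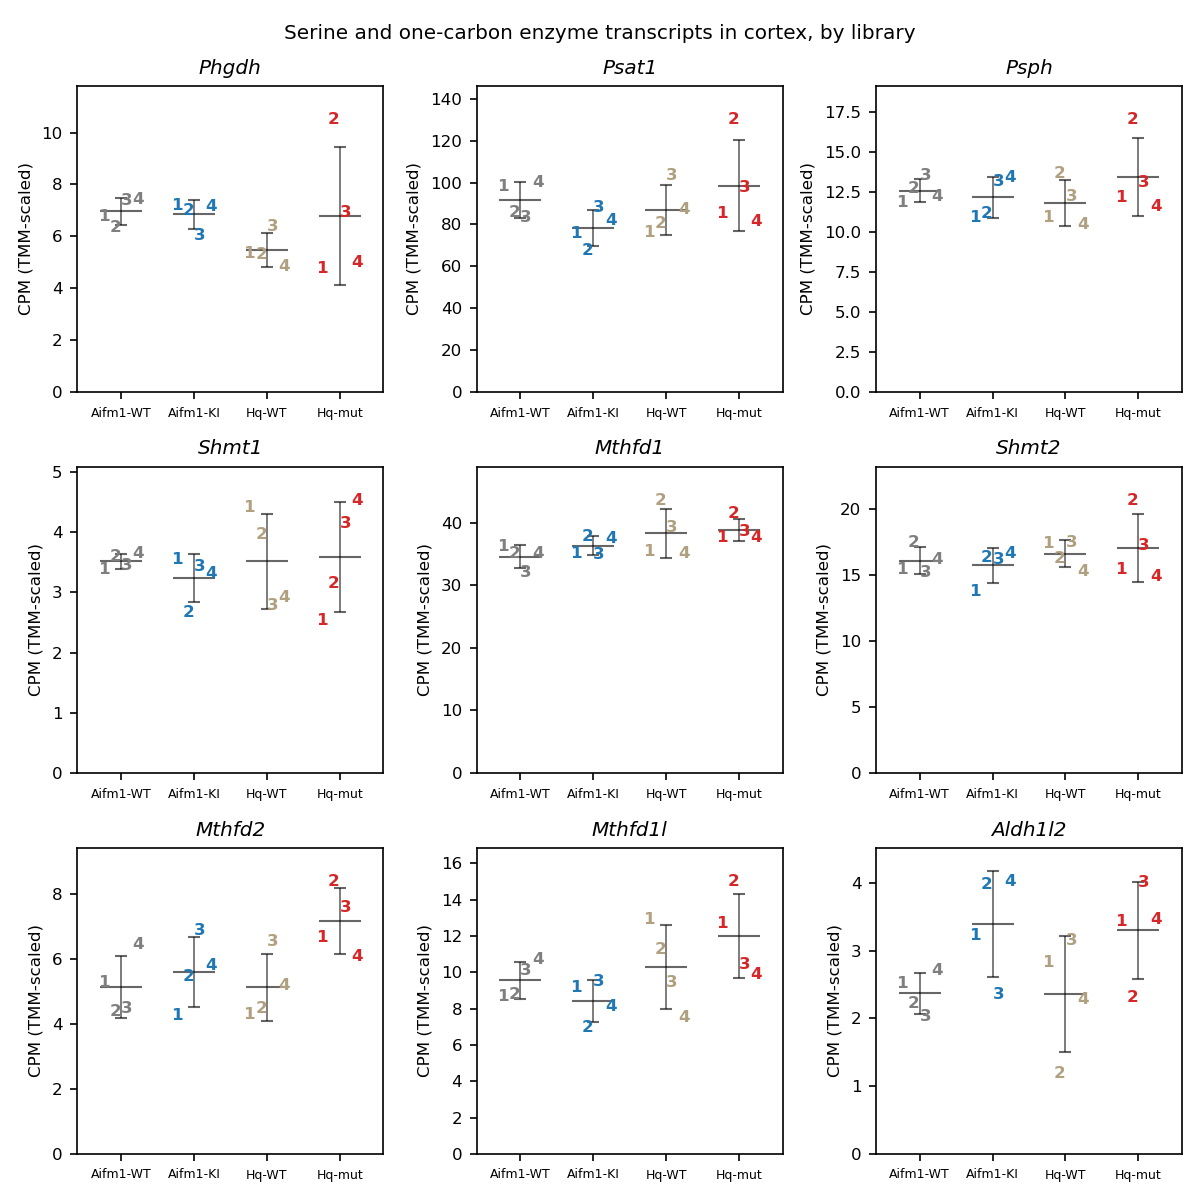
Level of each of the 9 transcripts in CPM (y axis, from 0, TMM-scaled) in the 4 groups, with each library drawn as its replicate number, a horizontal line at the group mean and a bar of 1 SD. Hq-mut 2 has the highest Phgdh, Psat1, Psph, Shmt2, Mthfd2 and Mthfd1l of all 16 libraries, and no mutant group is clear of its wild types for any of the 9.

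Phgdh (ENSMUSG00000053398, GRCm38 chromosome 3, 98313170 to 98339990, minus strand, protein-coding) is the member whose counts are least certain. Of the 51-base windows of its annotated transcripts, the length of the reads, 47.3% are identical to a window in transcripts of other genes, among them 19 processed pseudogenes. The closest copy is Gm7901, an intronless pseudogene at GRCm38 chromosome 8, 75711600 to 75713196. It matches the 1599-base Phgdh coding sequence at 98.9% of 1595 aligned bases, with 18 differences, and 924 of the 1549 coding windows are the same in both. The 2 windows that follow are shown because a read from the first fits Phgdh and Gm7901 equally well, whereas a read from the second separates them by a single base.
Phgdh and Gm7901, coding bases 48 to 98: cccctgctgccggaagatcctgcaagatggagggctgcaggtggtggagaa
Phgdh, coding bases 268 to 318: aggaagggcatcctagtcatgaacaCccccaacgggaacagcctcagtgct
Gm7901, the aligned bases: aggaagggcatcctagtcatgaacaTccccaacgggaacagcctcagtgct
The capital marks the single difference, C26T, counted from the 5′ end of the window with the Phgdh base first. Sequences are from the GENCODE M21 transcripts.

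How the authors' counting treated reads that fit more than 1 place is not given in the sources used here. Gm7901 had a mean of 3.98 CPM over the 16 libraries. Between 45.4% and 58.0% of the counts of Phgdh and its 19 processed pseudogenes lay in the Phgdh row, and the pseudogenes held the rest. The sum over gene and copies is reported beside Phgdh below. Of the other members, Aldh1l2 shares 13.5% of its windows, 13.2% with D10Wsu102e on the opposite strand, which stood at a mean of 52.9 CPM. Psph shares 8.79%, all with the opposite-strand gene Cct6a at a mean of 152 CPM, and Shmt1 3.34%, with the opposite-strand gene Smcr8. Without a stated strand setting, reads from these overlaps cannot be assigned to one of the pair. Shmt2 shares 1.18% and Psat1 0.691% of their windows, and Mthfd1, Mthfd2 and Mthfd1l share 0.

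**Figure D2:**
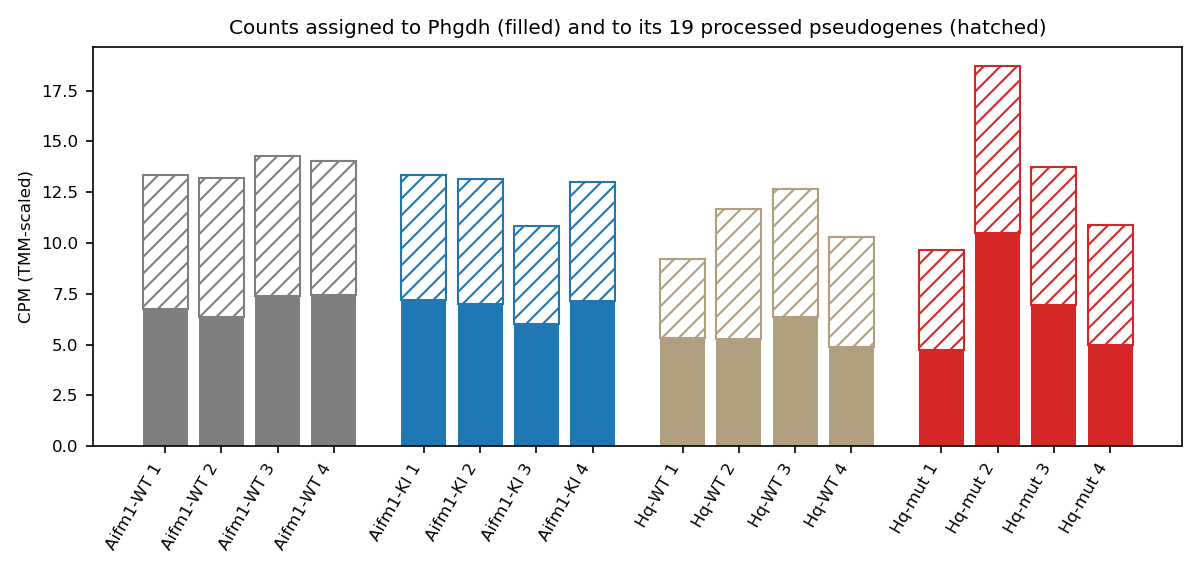
CPM (y axis, from 0) assigned to Phgdh (filled) and to its 19 processed pseudogenes together (hatched, stacked on top) in each of the 16 libraries. The stacked total is highest in Hq-mut 2, at 18.7 CPM, and lowest in Hq-WT 1, at 9.19 CPM.

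The comparison of Aifm1-KI with its littermates asks which cortical transcripts differ with the deletion. None of the 9 enzymes passed the test, and the values furthest from 0 were a higher Aldh1l2, 1.46-fold, and a lower Psat1. The edgeR test called 0 of the 9 at an adjusted p under 0.05, as it did for 0% of the 18383 genes tested, with 2094 genes at an unadjusted p under 0.05. DESeq2 called 82 of all genes and limma-voom 0, and neither called a member. By log2 fold change 3 members were higher and 6 lower in Aifm1-KI, with a median of -0.02 beside 0.005 for all genes tested. Of the 9, Psat1 and Aldh1l2 had an unadjusted p under 0.05, a level that 11.4% of all genes reached.

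Among the enzymes of serine synthesis, Phgdh was at 7.18, 7.01, 6.03 and 7.15 CPM in Aifm1-KI 1 to 4 and at 6.75, 6.34, 7.38 and 7.43 CPM in Aifm1-WT 1 to 4. The groups overlapped, and the log2 fold change was -0.01 (SE 0.10, adjusted p = 0.992 by edgeR), with 2 SE either side spanning -0.21 to 0.20. Summed with its pseudogenes, Phgdh averaged 12.6 ± 1.19 CPM in Aifm1-KI and 13.7 ± 0.51 CPM in Aifm1-WT (SD, n = 4 each). That sum had a log2 fold change of -0.10 (SE 0.08, adjusted p = 0.653 by edgeR). The aminotransferase Psat1 (ENSMUSG00000024640, chromosome 19, 15904678 to 15947337, minus strand) was at 75.6, 67.7, 88.2 and 81.7 CPM in Aifm1-KI and at 98.1, 85.6, 83.4 and 100 CPM in Aifm1-WT. Libraries 1, 2 and 4 of Aifm1-KI lay below every Aifm1-WT library, and library 3 lay within their range. Its log2 fold change was -0.22 (SE 0.09, unadjusted p = 0.0377, edgeR adjusted p = 0.424). The phosphatase Psph (ENSMUSG00000029446, chromosome 5, 129765558 to 129787449, minus strand) spanned 10.9 to 13.4 CPM in Aifm1-KI and 11.8 to 13.5 CPM in Aifm1-WT, and its log2 fold change was -0.04 (SE 0.10).

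The hydroxymethyltransferases were close to wild type in Aifm1-KI. Mitochondrial Shmt2 (ENSMUSG00000025403, chromosome 10, 127517123 to 127522444, minus strand) averaged 15.7 ± 1.32 CPM in Aifm1-KI and 16.1 ± 1.03 CPM in Aifm1-WT (SD, n = 4 each), and its log2 fold change was -0.02 (SE 0.08). Cytosolic Shmt1 (ENSMUSG00000020534, chromosome 11, 60788104 to 60811718, minus strand) averaged 3.24 ± 0.40 and 3.51 ± 0.13 CPM (SD, n = 4 each), with a fold change of -0.12 on the log2 scale (SE 0.13). The cytosolic trifunctional enzyme Mthfd1 (ENSMUSG00000021048, chromosome 12, 76255298 to 76319803, plus strand) averaged 36.3 ± 1.52 and 34.6 ± 1.78 CPM (SD, n = 4 each). Its log2 fold change of 0.08 (SE 0.06) had 2 SE either side at -0.03 and 0.20, the narrowest interval of the 9.

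Of the mitochondrial folate enzymes, Aldh1l2 (ENSMUSG00000020256, chromosome 10, 83487450 to 83534140, minus strand) was at 3.22, 3.97, 2.35 and 4.01 CPM in Aifm1-KI and at 2.52, 2.22, 2.02 and 2.71 CPM in Aifm1-WT. Libraries 1, 2 and 4 of Aifm1-KI were above every Aifm1-WT library, and library 3 lay among them. The log2 fold change was 0.55 (SE 0.19, unadjusted p = 0.0150, edgeR adjusted p = 0.373). Mthfd2 (ENSMUSG00000005667, chromosome 6, 83305691 to 83325908, minus strand) was at 4.28, 5.46, 6.87 and 5.80 CPM in Aifm1-KI and at 5.27, 4.40, 4.48 and 6.45 CPM in Aifm1-WT. The log2 fold change of Mthfd2 was 0.13 (SE 0.17, edgeR adjusted p = 0.804). The formate-releasing Mthfd1l (ENSMUSG00000040675, chromosome 10, 3973118 to 4167081, plus strand) was at 9.19, 6.95, 9.47 and 8.11 CPM against 8.65, 8.80, 10.1 and 10.7 CPM, with a log2 value of -0.18 (SE 0.13, edgeR adjusted p = 0.597). For Mthfd2 and Mthfd1l the mutant and wild-type libraries overlapped, and no member of the 9 had groups that did not overlap. Among all genes tested, 2.03% had every Aifm1-KI library above every Aifm1-WT library and 2.83% had every one below.

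Marker levels of other tissue and cells are set here beside the higher Aldh1l2 and the lower Psat1. The mean log2 CPM of the striatal markers was 4.18, 5.19, 3.48 and 5.05 in Aifm1-KI 1 to 4 and 3.29 to 3.54 in Aifm1-WT, so the 3 libraries with high Aldh1l2 were those with the highest striatal level. With the striatal level as a covariate the log2 fold change of Aldh1l2 was 0.02 (SE 0.23, edgeR adjusted p = 0.999), and without Aifm1-KI 2 and 4 it was 0.27 (SE 0.21, edgeR adjusted p = 0.913). With the astrocyte marker level as a covariate it was 0.64 (SE 0.16, edgeR adjusted p = 0.0315), the single setting that called a member, in a fit that called 1889 of 18383 genes. The astrocyte markers, 10 of 10 detected, summed to 4891 to 5464 CPM in Aifm1-KI and 5284 to 5518 CPM in Aifm1-WT. For Psat1, the mean log2 CPM of the 8 oligodendrocyte markers was 7.52, 6.50, 7.63 and 6.95 in Aifm1-KI and 7.85, 7.39, 7.47 and 7.80 in Aifm1-WT. Aifm1-KI 2 and 4 were below every Aifm1-WT library in that level, and Aifm1-KI 1, also low in Psat1, was within their range. With that level as a covariate, an alternative added after the data were seen, the log2 fold change of Psat1 was -0.08 (SE 0.08, edgeR adjusted p = 0.975). In bulk tissue, fewer cells of a type and less RNA per cell cannot be told apart. Marker levels and genotype differ together in these libraries, so their parts in either value cannot be told apart.

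Set against Hq-WT, Hq-mut addresses the same question for the mutation that lowers Aifm1. No enzyme passed the test here either. Mthfd2 and Aldh1l2 had the highest fold changes, 1.38-fold and 1.39-fold. They and Psph were higher in the mutant of all 4 pairs, as were 11.9% of all genes tested. The edgeR test called 0 of the 9, beside 0.0167% of the 17969 genes tested, which is 3 genes, and 1 member, Mthfd2, had an unadjusted p under 0.05. DESeq2 and limma-voom called 0 of the 9 too. By log2 fold change 7 of the 9 were higher and 2 lower, with a median of 0.17 beside 0.01 for all genes. The 2 lower values, for Shmt1 and Mthfd1, were within 0.01 of 0, and with DESeq2's size factors all 9 were higher. Without Hq-mut 2 the median was 0.05, and without pair 2 as a whole it was 0.12, with 6 of the 9 higher. With the level of oligodendrocyte markers as a covariate, added after the data were seen, the median was 0.07, with 7 of the 9 higher.

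Replicate numbers pair the Hq libraries, as the shared deviations of same-numbered libraries show, so each mutant is also set beside the wild type of its number. With the replicate block the edgeR test called 0 of the 9, with 2 at an unadjusted p under 0.05, and again 0.0167% of all genes, while the share of all genes at an unadjusted p under 0.05 went from 2.14% to 7.97%. The members' median log2 fold change in the paired fit was 0.16, beside 0.006 for all genes. The paired differences below are log2 CPM of Hq-mut minus Hq-WT, for pairs 1 to 4. Of all genes tested, 11.9% were higher in the mutant of all 4 pairs and 6.9% lower in all 4.

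Mthfd2, which oxidises folate-bound carbon in mitochondria, was at 6.68, 8.38, 7.60 and 6.08 CPM in Hq-mut 1 to 4 and at 4.30, 4.47, 6.56 and 5.20 CPM in Hq-WT 1 to 4. Libraries 1, 2 and 3 of Hq-mut were above every Hq-WT library, and Hq-mut 4 was below Hq-WT 3. The paired differences were 0.62, 0.89, 0.21 and 0.22, with pairs 1 and 2 wider than pairs 3 and 4. The log2 fold change was 0.47 (SE 0.19, unadjusted p = 0.0335, edgeR adjusted p = 1.0), with 2 SE either side at 0.09 and 0.85. In the paired fit it was 0.47 (SE 0.16, unadjusted p = 0.0158, edgeR adjusted p = 0.582). Without pair 2 the paired value was 0.34 (SE 0.15, edgeR adjusted p = 0.336), and without any other single pair it was 0.43 to 0.57.

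Aldh1l2 was at 3.42, 2.30, 4.005 and 3.46 CPM in Hq-mut and at 2.83, 1.18, 3.14 and 2.28 CPM in Hq-WT. Libraries 1, 3 and 4 of Hq-mut were above every Hq-WT library, and library 2 was low in both groups. Its paired differences were 0.27, 0.91, 0.34 and 0.58. The unpaired log2 fold change was 0.47 (SE 0.31, adjusted p = 1.0 by edgeR) and the paired one 0.50 (SE 0.18, unadjusted p = 0.0232, edgeR adjusted p = 0.591). Without Hq-WT 2, the library with the lowest Aldh1l2, the unpaired value was 0.25, and the paired value without pair 2 was 0.39. Mthfd1l was at 12.7, 15.0, 10.4 and 9.88 CPM in Hq-mut and at 12.9, 11.2, 9.43 and 7.53 CPM in Hq-WT, higher in 3 of the 4 pairs. In both groups its libraries 1 and 2 were above libraries 3 and 4. The paired log2 fold change of Mthfd1l was 0.21 (SE 0.12, edgeR adjusted p = 0.683).

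The first enzyme of serine synthesis rested on 1 library. Phgdh was at 4.75, 10.5, 6.93 and 4.98 CPM in Hq-mut and at 5.33, 5.29, 6.38 and 4.86 CPM in Hq-WT. Hq-mut 2 had the highest Phgdh of the 16 libraries, and Hq-mut 1 was below all 4 Hq-WT libraries. The log2 fold change was 0.29 (SE 0.26, adjusted p = 1.0 by edgeR), and without Hq-mut 2 it was 0.02. The paired differences were -0.16, 0.97, 0.12 and 0.04. Summed with its pseudogenes, Phgdh averaged 13.2 ± 4.03 CPM in Hq-mut and 10.95 ± 1.52 CPM in Hq-WT (SD, n = 4 each), and the sum's log2 fold change was 0.25 (SE 0.21, adjusted p = 1.0 by edgeR).

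Psat1 had the same library on top. It was at 85.4, 130, 97.4 and 81.6 CPM in Hq-mut and at 76.3, 80.2, 103 and 86.9 CPM in Hq-WT. Its log2 fold change was 0.16 (SE 0.16, adjusted p = 1.0 by edgeR), and 0.01 without Hq-mut 2. Psph was at 12.2, 17.0, 13.1 and 11.6 CPM in Hq-mut and at 10.9, 13.7, 12.2 and 10.4 CPM in Hq-WT. It was the third member that was higher in all 4 pairs, by 0.16, 0.31, 0.10 and 0.15, the smallest spread of the 3. Cct6a, the opposite-strand gene that shares part of its sequence, was at 176, 192, 155 and 144 CPM in Hq-mut. In Hq-WT it was at 163, 185, 131 and 144 CPM. The part of Cct6a reads in the Psph counts was not tested. The paired log2 fold change of Psph was 0.16 (SE 0.10, edgeR adjusted p = 0.711).

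The remaining folate enzymes were near wild type in Hq-mut. Shmt2 spanned 14.9 to 20.6 CPM in Hq-mut and 15.3 to 17.5 CPM in Hq-WT, a log2 fold change of 0.01 (SE 0.13). Shmt1 spanned 2.53 to 4.52 CPM in Hq-mut and 2.77 to 4.41 CPM in Hq-WT, and its paired differences went both ways, at -0.78, -0.32, 0.56 and 0.62. Mthfd1 spanned 37.6 to 41.4 CPM against 35.1 to 43.5 CPM, with paired differences between -0.07 and 0.10. In no member did the 2 Hq groups fail to overlap, and among all genes 0.857% had every mutant library above every wild type and 0.723% every one below.

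**Figure D3:**
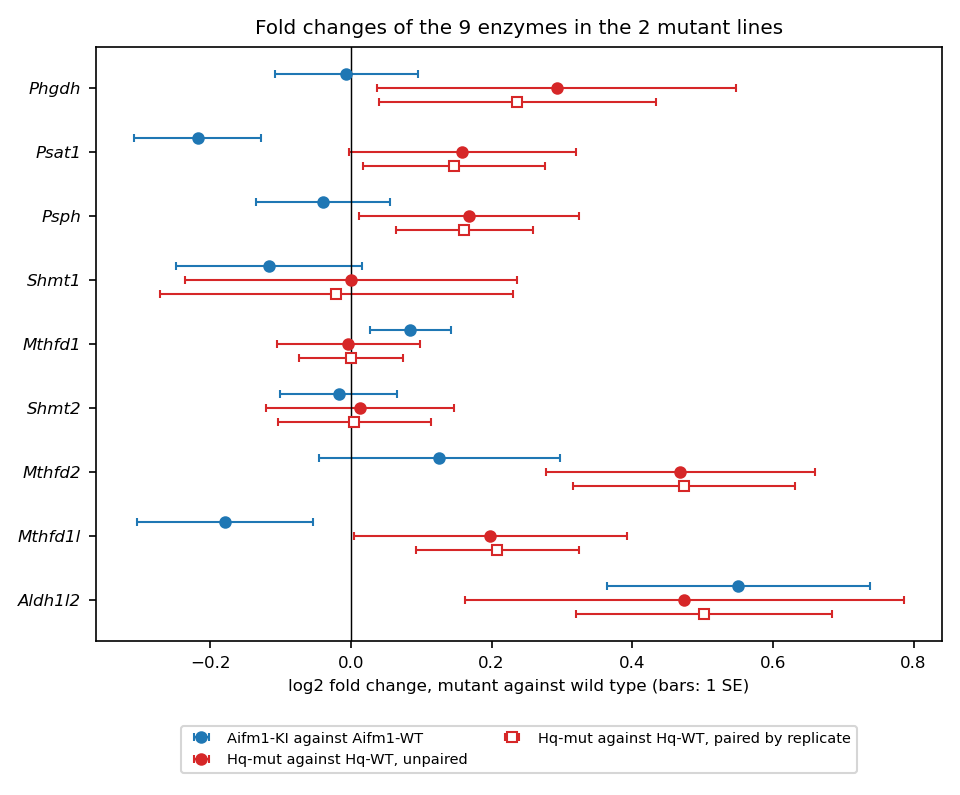
Log2 fold change of each enzyme against the wild types of its line (x axis), with bars of 1 SE, for Aifm1-KI (blue), Hq-mut unpaired (red, filled) and Hq-mut paired by replicate number (red, open). Aldh1l2 lies near 0.5 in both lines, Mthfd2 at 0.13 in Aifm1-KI and 0.47 in Hq-mut, and Psat1 at -0.22 and 0.16.

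**Figure D4:**
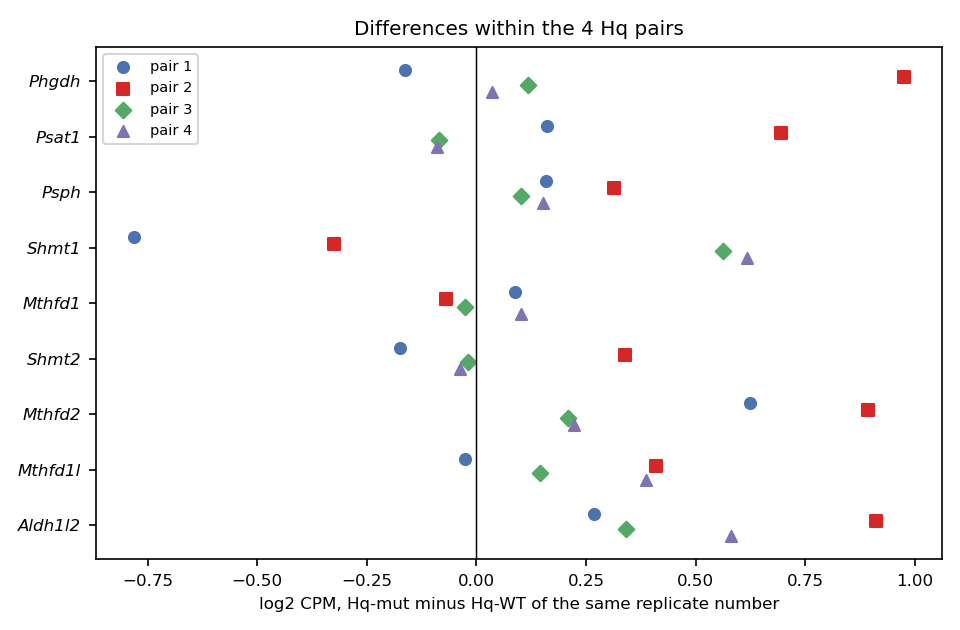
Difference in log2 CPM between Hq-mut and Hq-WT of the same replicate number (x axis) for the 9 enzymes, with 1 symbol for each of the 4 pairs. Psph, Mthfd2 and Aldh1l2 lie right of 0 in all 4 pairs, and pair 2 stands apart for Phgdh, at 0.97, and Psat1, at 0.69.

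Cell and tissue markers also differed within the Hq pairs, though not always in step with the members. Pair 2 had a mean oligodendrocyte level of 7.92 in Hq-mut 2 and 6.47 in Hq-WT 2, the widest gap of the 4 pairs, and it had the highest Psat1 difference. In pair 3 this level and Psat1 were both lower in the mutant. In pair 1 the level was 6.60 in the mutant and 6.73 in the wild type, with a Psat1 difference of 0.16. In pair 4 it was 7.22 and 6.97, with a Psat1 difference of -0.09. With the oligodendrocyte level as a covariate the log2 fold change of Psat1 was 0.04 (SE 0.12, edgeR adjusted p = 1.0). The 8 oligodendrocyte markers summed to 2180 to 4866 CPM in Hq-mut and 1954 to 5946 CPM in Hq-WT, and none was at 0. The mean striatal level was 5.69 in Hq-mut 3, 3.64 to 4.17 in the other Hq-mut libraries and 3.34 to 3.74 in Hq-WT. With it as a covariate Aldh1l2 was at 0.32 (SE 0.38, edgeR adjusted p = 0.999). Both covariate fits leave the Hq libraries unpaired, so their SEs are not those of the paired fit. In pairs 1, 3 and 4 the striatal level and Aldh1l2 were both higher in the mutant. The widest Aldh1l2 difference, 0.91 in pair 2, came with a striatal level of 3.64 in Hq-mut 2 and 3.73 in Hq-WT 2. The part of these markers in the members' values in Hq was not tested further.

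The difference between the mutants' effects was tested in a fit over all 16 libraries, as the Hq effect minus the Aifm1-KI effect. It called 0 of the 9 members, beside 0.0105% of 19129 genes, and 0 members had an unadjusted p under 0.05. That fit leaves the Hq libraries unpaired. With the replicate number as a block in both lines, 0 members were called and 1 had an unadjusted p under 0.05. In the blocked fit 10.9% of all genes reached that level. The values below are from unpaired fits. DESeq2 and limma-voom called none of the 9. The member with the smallest p was Psat1, at 0.38 (SE 0.19, unadjusted p = 0.0674, edgeR adjusted p = 0.946), from a lower value in Aifm1-KI and a higher one in Hq-mut. Without Hq-mut 2 the difference in Psat1 was 0.23, and the value in Hq-mut was 0.01. Mthfd1l differed by 0.37 (SE 0.24, edgeR adjusted p = 0.952) and Mthfd2 by 0.34 (SE 0.26, edgeR adjusted p = 0.952), which was 0.22 without Aifm1-WT 4. Aldh1l2, with near-equal values in the lines, differed by -0.06 (SE 0.38), with 2 SE either side at -0.82 and 0.69. That interval leaves room for a difference larger than either effect.

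Hq-WT was also set against Aifm1-WT as a background, in which line, litter and any processing batch cannot be told apart. The edgeR test called 0 of the 9 members, beside 0.558% of 18106 genes, and DESeq2 and limma-voom called 0 of the 9 too. By edgeR 1 member had an unadjusted p under 0.05, a level that 12.7% of all genes reached. Phgdh was furthest from 0, lower in Hq-WT than in Aifm1-WT at a log2 fold change of -0.37 (SE 0.14, unadjusted p = 0.0202, edgeR adjusted p = 0.292). Hq-WT 1, 2 and 4 were below every Aifm1-WT library and Hq-WT 3 was not. With its pseudogenes added, Phgdh differed by -0.34 (SE 0.12, edgeR adjusted p = 0.264). The other 8 members lay between -0.10 and 0.14. No member had wild-type groups that did not overlap, beside 2.69% of genes with every Hq-WT library above and 4.59% with every one below.

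Across libraries the enzymes did not vary as 1 block. Deviations from the group mean in log2 CPM were correlated over the 16 libraries for the 36 pairs of members, of which 23 were positive, with a median r of 0.25. The range went from -0.59 for Psph and Aldh1l2 to 0.79 for Psat1 and Mthfd2. For Psat1 and Mthfd2 Pearson's r was 0.79 (permutation within groups, p = 0.00056, adjusted over 36 pairs 0.0202) and Spearman's rho 0.79 (permutation p = 0.00178, adjusted 0.0641). Those permutations treat the Hq libraries as unpaired. With same-numbered Hq-mut and Hq-WT libraries permuted together, over all 13824 permutations, the exact p for r was 0.00217 and its adjusted value 0.0781. The exact p for rho was then 0.00535, adjusted 0.139, so that no pair of members had an adjusted p under 0.05 once the pairing was kept. Without the 2 libraries farthest from the median in Mthfd2, Aifm1-KI 1 and Hq-WT 3, r was 0.82. That value still includes Hq-mut 2, the library with the highest deviation in Psat1, 0.42. Phgdh and Psat1, consecutive enzymes, had an r of 0.71 (permutation p = 0.0287, adjusted 0.251), which was 0.35 without Hq-mut 2 and Hq-WT 3. Aldh1l2 had a negative r with 7 of the other 8 members, but its rho with them went both ways, from -0.32 for Psph to 0.27 for Phgdh. Its r furthest from 0, that with Psph, had an adjusted permutation p of 0.251.

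Psat1 had the highest r of any member with a marker list, that with the oligodendrocyte markers, at an adjusted p above 0.05. The correlation of its deviations with those of the mean marker level was 0.80 over the 16 libraries (permutation within groups, p = 0.00159, adjusted over 36 relations of members and marker lists 0.0572), with a rho of 0.79 (permutation p = 0.00226, adjusted 0.0814). Without Hq-WT 3 and Hq-mut 2 it was 0.72. Mthfd2 had an r of 0.59 with the same markers (permutation p = 0.0356, adjusted 0.428), and 0.38 without those libraries. Aldh1l2 had an r of 0.69 with astrocyte markers (permutation p = 0.0309, adjusted 0.428), and 0.43 without Hq-WT 2 and Hq-WT 3. Its r with striatal markers was 0.44 (permutation p = 0.0903, adjusted 0.492). Mthfd1l ran opposite to the astrocyte markers, with an r of -0.65 (permutation p = 0.0545, adjusted 0.456). None of the 36 relations had an adjusted permutation p under 0.05, with or without the Hq pairs kept together.

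**Figure D5:**
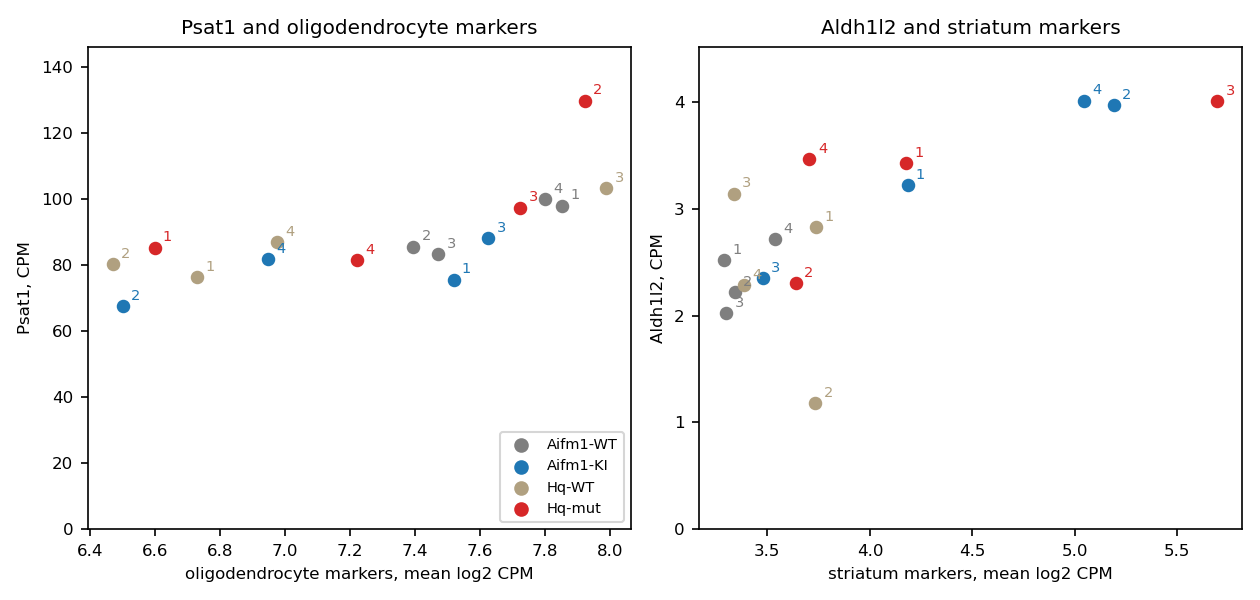
Left, Psat1 in CPM (y axis, from 0) against the mean log2 CPM of 8 oligodendrocyte markers (x axis), and right, Aldh1l2 in CPM against the mean log2 CPM of 10 striatal markers, with 1 numbered point for each of the 16 libraries, coloured by group. Psat1 is highest in Hq-mut 2, at 130 CPM, and Aldh1l2 is near 4.0 CPM in Aifm1-KI 2, Aifm1-KI 4 and Hq-mut 3, the libraries with the highest striatal level.

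The genes whose deviations were most like those of a member, among 12429 or 12430 genes with a mean log2 CPM of at least 2, are given as a description over 16 libraries that share depth and tissue makeup. For Psat1 it was Sirt2, with an r of 0.96. For Phgdh it was Tsc22d4 (0.91), for Psph Tmem129 (0.93) and for Shmt2 Sec14l2 (0.92). Mthfd1 was most like Acaa2 (0.91), Shmt1 most like Cnnm1 (0.89) and Mthfd2 most like Irak2 (0.88). Mthfd1l was most like Pdlim1 (0.90) and Aldh1l2 most like Clmn (0.93). No member was the closest match of another.

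Because Psat1 and Mthfd2 had the highest correlation of the 36, the 250 bases before a RefSeq start site of each (GRCm38.p6) are shown, on the gene's strand, with each CCAAT box or its reverse complement ATTGG in capitals.
Mthfd2, chr6:83317605-83317854, minus strand: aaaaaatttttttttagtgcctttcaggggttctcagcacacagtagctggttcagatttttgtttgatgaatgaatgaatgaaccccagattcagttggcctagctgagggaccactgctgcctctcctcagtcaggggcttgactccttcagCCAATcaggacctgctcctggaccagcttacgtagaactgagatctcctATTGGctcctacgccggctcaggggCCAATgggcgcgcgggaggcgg
Psat1, chr19:15925060-15925309, minus strand: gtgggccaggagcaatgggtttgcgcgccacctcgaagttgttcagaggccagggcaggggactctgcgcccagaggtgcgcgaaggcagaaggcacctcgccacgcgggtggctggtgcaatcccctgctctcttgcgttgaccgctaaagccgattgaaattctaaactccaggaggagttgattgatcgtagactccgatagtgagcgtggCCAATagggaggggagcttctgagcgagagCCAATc
Mthfd2 has 3 such boxes and this Psat1 window 2, all within 100 bases of the start site. RefSeq gives Psat1 a second start site, whose 250 bases (chr19:15924623-15924872) hold 0 such boxes. RefSeq held windows for 8 of the 9 members, 9 windows in all, of 250 bases before and 50 after the start. CCAAT on either strand was in a window of Phgdh, Psat1, Psph, Shmt1, Mthfd1 and Mthfd2, and in 37.4% of all 32851 windows of that length. The motif TGATGNAA, of the type ATF4 binds with C/EBP partners, was in 0 of the 9 windows and in 3.97% of all windows. The motifs TGACGTCA and CACGTG were also in 0 of the 9, against 1.79% and 7.15% of all. A match is a description of the letters in these windows.

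Genes around the enzymes in the pathway were counted from 5 lists. None had a called member in either mutant line. Among 15 tested genes of serine and glycine transport and use, 10 were higher in Aifm1-KI and 10 in Hq-mut. The smallest p belonged to Sptlc2, a subunit of serine palmitoyltransferase, in Aifm1-KI, at 0.12 (SE 0.05, edgeR adjusted p = 0.423). In Hq-mut it belonged to Slc38a5, a transporter of glutamine, serine and glycine, at 2.31, 2.90, 3.01 and 2.57 CPM against 1.25, 1.44, 0.92 and 1.80 CPM in Hq-WT. Every Hq-mut library was above every Hq-WT library, as for 0.857% of all genes tested. The log2 fold change of Slc38a5, named for its small p, was 0.95 (SE 0.24, unadjusted p = 0.00236, edgeR adjusted p = 1.0).

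Of the 4 genes of glycine cleavage, which breaks glycine down in mitochondria, 1 was higher in Aifm1-KI and 2 in Hq-mut. Gldc, its decarboxylase, was at -0.32 in Hq-mut (SE 0.14, edgeR adjusted p = 1.0) and -0.08 in Aifm1-KI (SE 0.06). Of 17 tested other folate enzymes and transporters, 8 were higher in Aifm1-KI and 6 in Hq-mut. Aldh1l1, the cytosolic relative of Aldh1l2 and an astrocyte marker, was at 54.7, 47.3, 58.9 and 56.0 CPM in Aifm1-KI and at 72.1, 62.1, 63.5 and 71.0 CPM in Aifm1-WT. Every Aifm1-KI library was below every Aifm1-WT library, as for 2.83% of all genes tested, the opposite side from Aldh1l2. Averaged over all 10 astrocyte markers, Aldh1l1 included, the log2 level did not separate the groups in this way. Aifm1-KI 2 and 4 stood at 7.49 and 7.51, over the Aifm1-WT range of 7.41 to 7.46. Aifm1-KI 1 and 3, at 7.23 and 7.21, stood under that range. The astrocyte covariate with which Aldh1l2 was called rests on these markers, so Aldh1l1 is part of it. The log2 fold change of Aldh1l1, named for the smallest p of its list, was -0.30 (SE 0.08, unadjusted p = 0.00393, edgeR adjusted p = 0.368). In Hq-mut the smallest p was that of the folate receptor Folr1, at -2.94 (SE 1.33), a choroid plexus marker that stood at 18.6 CPM in Hq-WT 2 and at 1.11 CPM or less in the other Hq libraries.

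Of 11 tested genes of the methionine cycle and transsulfuration, 5 were higher in Aifm1-KI and 4 in Hq-mut. Gnmt, a glycine methyltransferase abundant in liver, was at -1.97 in Aifm1-KI (SE 0.62, edgeR adjusted p = 0.368). It was at 4.23 and 5.61 CPM in Aifm1-WT 1 and 2, the libraries with the highest liver transcripts, and at 0.87 and 0.85 CPM in Aifm1-WT 3 and 4. Cth, which makes cysteine, was at -0.38 in Hq-mut (SE 0.23).

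The last list held genes of ATF4 and the integrated stress response, with the 9 members left out. In Hq-mut 25 of 28 tested genes were higher, beside 53.1% of all genes, with a median log2 fold change of 0.15 beside 0.01 for all genes, and in Aifm1-KI 11 of 27 were higher, with a median of -0.03. In the paired Hq fit 23 of 28 were higher, with a median of 0.14. The median was 0.07 without Hq-mut 2, with 23 of 28 higher, and 0.09 without pair 2, with 22 higher. Trib3, a pseudokinase induced by ATF4, was at 0.81, 1.23, 1.26 and 1.10 CPM in Hq-mut and at 0.05, 0.10, 0.46 and 0.44 CPM in Hq-WT. All 4 mutant libraries were above all 4 wild types, as for 0.857% of all genes tested. The log2 fold change of Trib3 was 2.09 (SE 0.50, unadjusted p = 0.00184, edgeR adjusted p = 1.0), at a level where a count of 0 allows up to 0.281 CPM in the shallowest library. In Aifm1-KI the smallest p was that of Stc2, a secreted stanniocalcin, at 0.83 (SE 0.24, edgeR adjusted p = 0.368). For the difference of the effects, in the unpaired fit, 24 of 28 genes of the list were higher, beside 49.95% of all genes. Their median was 0.17, beside -0.0002 for all genes. The edgeR test called 0 of them, as did DESeq2 and limma-voom, with 4 at an unadjusted p under 0.05, a level that 5.08% of all genes reached. Without Hq-mut 2, 20 of 28 were higher, with a median of 0.09 and 1 at that level.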

How the data were processed

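Per the labels' protocols, RNA was extracted with TRIzol and sequenced on Illumina HiSeq after a KAPA mRNA-seq library kit. Per the series' design text, the 51-base single-end reads were trimmed, mapped to mm10 with STAR (version 2.6, per the submitters' processing notes) and counted per gene with HTSeq. The deposited values are whole-number counts per Ensembl gene, not normalized, and the sources used here give neither the authors' annotation release nor the strand setting of the counting. Symbols and positions came from GENCODE M21 on GRCm38, which matched 55394 of 55573 rows. Promoter windows came from RefSeq on GRCm38.p6.

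Each comparison was fitted over the whole table with edgeR 4.0.16 in R 4.3.3 (TMM factors, default filter on low counts by group, quasi-likelihood F-test, Benjamini-Hochberg adjustment over all genes tested, called under 0.05). Each mutant was fitted with its own littermates, 8 libraries a fit, and the difference of the effects over all 16. The SE was taken as the log2 fold change over the root of its F statistic. Log2 CPM used a prior count of 2. Correlations used 100000 permutations within groups, two-sided, and, added after the data were seen, all 13824 that keep same-numbered Hq libraries together. DESeq2 1.42.0 and limma-voom (limma 3.58.1) were among the alternatives. A count of 0 allows 0.0922 to 0.281 CPM, taking 3 counts as the limit, for counting error only. The fits were tested on simulated counts with known changes, a fixed spread and no pairing. That setting is simpler than these data, so it does not speak for the members' values.

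Same-numbered Hq libraries deviated together over genes (r = 0.43, 0.53, 0.41 and 0.45 for numbers 1 to 4), and each was best matched by its own number, so the numbers pair them. Aifm1-KI and Aifm1-WT did not pair (r of -0.03 to 0.10). Libraries of a group differed beyond sampling noise, at 3.26 to 86.5 units of chi-square a gene over 24 pairs, so none was counted as a duplicate. Named genes were the 9 members, Aifm1, for each pathway list and line any called gene or else the one with the smallest p, and for each member the most similar gene. Neighbours and copies were named for their overlap or shared sequence. The members, lists and left-out libraries were chosen with earlier results of these data known. Replicate 2 of Hq and other libraries that stand apart were left out as alternatives.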

Additional observations from a re-analysis of the deposited data

Results flagged for a closer look

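In 2 of the 36 groups of 4 libraries formed by the 9 members, 1 library lay far from the other 3 by Dixon's test, where chance gives about 1 in 20. Phgdh was at 6.03 CPM in Aifm1-KI 3, below the other 3 Aifm1-KI libraries at 7.01 to 7.18 CPM, and its pseudogenes were lowest in the same library among Aifm1-KI. Shmt2, the mitochondrial hydroxymethyltransferase, was at 13.8 CPM in Aifm1-KI 1, below the other 3 at 16.2 to 16.7 CPM. The cause of either value was not tested.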

How the results depend on the processing

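No member was called under any of the alternatives run for Hq, for the difference of the effects or for the wild types, and in Aifm1-KI 1 was, Aldh1l2 with the astrocyte level as a covariate. The values of Aldh1l2, Psat1, Mthfd2 and Mthfd1 in Aifm1-KI and of Aldh1l2, Mthfd2, Psph and Mthfd1l in Hq-mut had the same sign in every alternative run. Other members changed sign in some, most of them near 0, and the cause was not tested. Depth limits the low members: Aldh1l2 rests on 23 to 136 counts a library.

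In Aifm1-KI against Aifm1-WT the number of genes called was 82 with DESeq2, 1889 with the astrocyte covariate (1 member) and 1 with the striatal one, and 0 to 46 with 1 library left out, the 46 without Aifm1-KI 3. On the log2 scale, Phgdh was at 0.010 with limma-voom and 0.020 with the astrocyte covariate, where Shmt2 was at 0.0062. With the striatal covariate Psph was at 0.010, Shmt1 at 0.068 and Mthfd1l at 0.054. Shmt1 was at 0.0028 without Aifm1-KI 2 and 4 and at 0.013 with the oligodendrocyte covariate, and Shmt2 at 0.013 without Aifm1-WT 1 and 2. With 1 library left out, Phgdh spanned -0.057 to 0.033 and Shmt2 -0.049 to 0.034.

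In Hq-mut against Hq-WT, 1 gene was called without pair 2, without pair 3 and with the striatal or oligodendrocyte covariate, and 1 to 2 with 1 library left out. Shmt1 was at 0.0013 with DESeq2, 0.0039 with its size factors in edgeR, 0.0047 with no filter and 0.035 with the oligodendrocyte covariate, which put Shmt2 at -0.053. Mthfd1 was at 0.0032 with DESeq2, 0.0029 with limma-voom, 0.0034 with no filter and 0.0023 with those size factors. Without pair 2, Phgdh was at -4.06e-05, Psat1 at -0.029, Shmt1 at 0.12, Mthfd1 at 0.037 and Shmt2 at -0.093. Without pair 3, Mthfd1 was at 0.0092. With 1 library left out, Shmt1 spanned -0.13 to 0.13, Mthfd1 -0.042 to 0.068 and Shmt2 -0.077 to 0.071.

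With the replicate block, which the pairing of the Hq libraries calls for, 3 genes and 0 members were called in Hq-mut, and DESeq2 with the block called 33 genes and put Mthfd1 at 0.0058. The block without pair 1 called 1 gene and put Shmt1 at 0.25. The block without pair 2 put Phgdh at -0.022, Psat1 at -0.023, Shmt1 at 0.10, Mthfd1 at 0.039 and Shmt2 at -0.097, and without pair 3 it called 1 gene and put Mthfd1 at 0.013. In the Aifm1 line, where the numbers do not pair the libraries, the block called 0 genes. It changed no other call of a member, and in the wild types it put Shmt1 at -0.021.

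For the difference of the effects, the number of genes called was 5 with DESeq2 and 1 with limma-voom, without Aifm1-KI 2 and 4, without Aifm1-WT 1 and 2 and without Hq pair 2, and 1 to 2 with 1 library left out. Shmt1 was at -0.011 without Aifm1-KI 2 and 4, where Aldh1l2 was at 0.22, and at -0.040 without Hq pair 3. Shmt2 was at -0.0048 without Aifm1-WT 1 and 2 and at -0.076 without Hq pair 2. With 1 library left out, the members' median spanned 0.092 (without Hq-mut 2) to 0.28, Shmt1 -0.012 to 0.26, Shmt2 -0.057 to 0.099 and Aldh1l2 -0.30 to 0.11.

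Between the wild types, DESeq2 called 421 genes and edgeR with no filter 560. With 1 library left out 32 to 231 were called, the members' median spanned -0.12 (without Hq-WT 3) to 0.049, Shmt1 -0.13 to 0.087, Mthfd2 -0.16 to 0.11, Mthfd1l -0.032 to 0.23 and Aldh1l2 -0.19 to 0.21. Shmt1 was at -0.011 with limma-voom.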
